A study of Mus musculus with 16 samples.

Results

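The proinflammatory cytokine genes described here are 10 mouse genes, Il6, Il1a, Il1b, Tnf, Csf1, Csf2, Csf3, Ifnb1, Lif and Il12b, out of 21368 genes with a symbol on the array. They were picked by name, and with their difference between Klotho-treated and control astrocyte cultures already known, so that difference is described below and not tested. All 10 were found through the RefSeq accession of their probes. Csf1 has 3 probes and each of the other 9 genes has 1. Primary cultures of C57BL/6 mouse cerebral cortex received 1 nM recombinant secreted Klotho, the circulating form of a protein best known as co-receptor for the hormone FGF23, or phosphate-buffered saline as vehicle, each for 24 h. The 4 groups of 4 arrays were astrocytes with Klotho, astrocytes with vehicle (astrocyte control), neurons with Klotho and neurons with vehicle (neuron control). The neuron cultures were made at embryonic day 16 and received the treatment at 14 days in vitro. For astrocytes the growth protocol names pups of postnatal day 0 to 5 and, after shaking for 15 h, a purity of more than 98%, while embryonic day 16 stands on the labels of these samples too. Whether separate cultures stand behind the 4 arrays of each group is not recorded, so the p-values cover the spread among these arrays alone, and that spread may be technical.

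Cytokines of this group are secreted proteins through which cells signal infection or injury to each other. Most of their genes are nearly silent in resting cells and are transcribed when pattern receptors such as the Toll-like receptors, or the receptors for interleukin-1 and TNF, release the transcription factor NF-kappaB. In the brain they are made mainly by microglia, the resident macrophages, and by astrocytes, and IL-1 alpha and TNF from microglia are known to drive astrocytes into a reactive state.

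The deposit assigns the astrocyte arrays to treatments in conflicting ways. By scanner file, Klotho replicates 1, 2, 3 and 4 lie on slide 3 at row 1 column 3, row 1 column 4, row 2 column 3 and row 2 column 4, and control replicates 1 to 4 lie at the same places of slide 2. The deposited value table gives 4 of the 8 astrocyte arrays the other treatment, so that all Klotho arrays lie in column 4 and all control arrays in column 3. Slide and treatment cannot be told apart under the first assignment, nor column and treatment under the second. Both name the same treatment for 4 arrays, the Klotho arrays of slide 3 column 4 and the control arrays of slide 2 column 3. Groups below are by scanner file unless stated. No neuron array is disputed, but all neuron Klotho arrays lie in row 2 and all neuron control arrays in row 1 of slide 1, so row and treatment cannot be told apart there.

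The promoter sequences in RefSeq (assembly GRCm38.p6) are shown for the 4 members whose window holds a match to the NF-kappaB consensus, since this factor is the shared inducer of the family. Windows ran from 250 bases before to 50 bases after the transcription start and were searched on both strands. They were available for 9 of the 10 members, all but Csf3. The consensus was found in Il6, Ifnb1, Lif and Csf1, which is 4 of 9 members, and in 8.5% of all 32851 windows. The lines below give the 200 bases before each start, 5′ to 3′ on the gene's strand, with the match in capitals.
Il6, chr5:30012914-30013113, plus strand: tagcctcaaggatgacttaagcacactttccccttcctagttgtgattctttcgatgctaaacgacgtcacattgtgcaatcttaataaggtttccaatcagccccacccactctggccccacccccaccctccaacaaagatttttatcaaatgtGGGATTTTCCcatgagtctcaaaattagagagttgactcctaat
Ifnb1, chr4:88522795-88522994, minus strand: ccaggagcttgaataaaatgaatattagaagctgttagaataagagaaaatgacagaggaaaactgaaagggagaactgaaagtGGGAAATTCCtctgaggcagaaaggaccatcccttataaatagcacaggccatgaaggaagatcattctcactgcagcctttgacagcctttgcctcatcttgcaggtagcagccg
Lif, chr11:4257368-4257567, plus strand: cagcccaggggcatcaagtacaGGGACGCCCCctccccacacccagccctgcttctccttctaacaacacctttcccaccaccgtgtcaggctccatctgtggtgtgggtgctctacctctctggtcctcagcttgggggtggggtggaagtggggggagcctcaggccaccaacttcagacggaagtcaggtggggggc
Csf1, chr3:107760470-107760669, minus strand: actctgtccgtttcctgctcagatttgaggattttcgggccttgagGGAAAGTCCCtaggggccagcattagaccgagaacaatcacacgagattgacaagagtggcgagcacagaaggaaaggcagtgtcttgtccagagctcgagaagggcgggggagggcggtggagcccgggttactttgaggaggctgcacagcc

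Counted from the start, the Il6 match lies at bases -44 to -35 and the Ifnb1 match at -116 to -107. Those of Lif (-178 to -169) and Csf1 (-154 to -145, on the opposite strand) lie farther away. The AP-1 core TGANTCA was found in Il1a, Il6 and Lif, 3 of 9 members against 7.8% of all windows. TATAA was found in Il1a, Il1b, Tnf, Il12b and Ifnb1, 5 of 9 members against 24.9% of all windows. No match of one motif overlapped a match of another. A match is a description of the letters and not a mapped binding site.

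Each level below is the log2 processed intensity minus the array's 75th percentile, so 0 is that percentile, and "above background" means that the scanner software called the spots well above background. Spots above background numbered 34120 to 39890 on astrocyte Klotho arrays, 36729 to 39605 on astrocyte control, 34357 to 36751 on neuron Klotho and 38541 to 39934 on neuron control arrays. The lowest level above background ran from -6.23 to -5.28 on astrocyte Klotho, -6.83 to -5.47 on astrocyte control, -5.82 to -5.14 on neuron Klotho and -6.68 to -6.06 on neuron control arrays. Precision is limited by having 4 arrays per group. In culture RNA, more cells of a type and more RNA per cell cannot be told apart.

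Cytokine transcripts were detected most widely on the astrocyte Klotho arrays. All 10 members were above background on 3 of these arrays and 7 were on replicate 3, against 5, 6, 3 and 5 on the astrocyte control arrays. In neurons 1, 3, 3 and 1 members were above background on the Klotho arrays, against 2 on each control array, Csf1 and Lif. The differences between astrocyte groups are described first, by the role of each cytokine.

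Il1a and Il1b encode the ligands of the interleukin-1 receptor. Il1b had levels of 0.67, 3.61, -3.85 and 2.21 on astrocyte Klotho replicates 1 to 4, against -3.00, -2.61, -6.25 and -3.56 on control replicates 1 to 4, the third of which was not above background. The groups overlap, because Klotho replicate 3 lies below 3 of the control arrays. The mean difference was 4.51 ± 1.51 (SE, n = 4 per group). Il1a stood at -4.52, -0.88, -7.81 and -1.53 on the Klotho arrays, again with replicate 3 not above background, and at -8.32, -6.54, -7.61 and -7.25 on the control arrays, none of which was above background. It was therefore at least 5.94-fold higher, a bound set against the lowest signal called above background on each control array. A signal higher than that can still be not above background, so this bound and those below are nominal. The groups of Il1a overlap as well.

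Tnf encodes tumour necrosis factor. It had levels of 2.04, 4.62, -1.96 and 3.43 on the Klotho arrays and -1.54, -1.16, -2.76 and -2.02 on the control arrays, all above background. Klotho replicate 3 lay within the control range and the other 3 lay above it. The mean difference was 3.90 ± 1.23.

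Il6 and Lif encode ligands that signal through the shared receptor subunit gp130. Il6 reached 2.75, 5.40, -2.17 and 5.60 on the Klotho arrays, against -4.28, -4.54, -6.34 and -4.76 on the control arrays, where replicate 3 was not above background. Here all Klotho values lie above all control values. The mean was 2.89 ± 3.62 with Klotho and -4.98 ± 0.93 in control (SD, n = 4 each), a difference of 7.87 ± 1.55 (SE). Lif, also known as a maintenance factor of embryonic stem cells, had -1.48, 1.45, -3.32 and 1.57 on the Klotho arrays and -3.66, -3.29, -3.53 and -2.45 on the control arrays. Its groups overlap through Klotho replicate 3, and the mean difference was 2.79 ± 1.02.

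Csf1, Csf2 and Csf3 encode the macrophage, granulocyte-macrophage and granulocyte colony-stimulating factors. Csf2 had levels of 0.29, 3.26, -4.06 and 3.71 on the Klotho arrays and -7.83, -6.92, -7.48 and -7.49 on the control arrays, none of which was above background. It was at least 133.5-fold higher with Klotho, and no Klotho value fell into the control range. With normexp background correction, which adds a constant to each signal, its log2 difference was 5.05. That is smaller than the bound, which holds on the main scale only. Csf3 had -2.08, 0.66, -6.43 and 1.84 on the Klotho arrays, with replicate 3 not above background, against -7.41, -8.45, -6.06 and -6.96 on the control arrays, none above background. Csf3 was at least 27.2-fold higher, with overlapping groups.

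Csf1, which keeps macrophages and microglia alive, was above background on all 16 arrays of the series. In astrocytes it had 6.34, 7.81, 5.91 and 6.85 on the Klotho arrays against 5.60, 5.61, 5.80 and 5.22 on the control arrays, without overlap. The difference of 1.17 ± 0.39 was the smallest of the 10, and was 0.59 as a mean over the probes. It rests on the probe for NM_007778, which has 10 spots on each array. The probes for the isoform NM_001113530 differed by less, with means of 3.04 ± 0.12 with Klotho against 2.75 ± 0.37 in control for one and 3.22 ± 0.14 against 2.93 ± 0.38 for the other (SD, n = 4 each). Both have 1 spot and overlapping groups, so the size of the Csf1 difference depended on the probe.

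Ifnb1 encodes interferon beta, and Il12b encodes the p40 subunit shared by interleukins 12 and 23. Ifnb1 had 0.36, 2.55, -4.28 and 2.41 on the Klotho arrays and -7.39, -6.11, -7.54 and -7.60 on the control arrays, of which replicate 2 alone was above background. The difference of the measured signals was 7.42 ± 1.36, or 4.52 with normexp background correction, and its size is uncertain because 3 control arrays were not above background. Il12b had -2.26, 0.99, -6.65 and 0.23 on the Klotho arrays, the third not above background, and -8.11, -8.21, -7.53 and -7.75 on the control arrays, none above background. It was at least 20.3-fold higher, and Klotho replicate 3 cannot be ordered against the control arrays.

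**Figure D1:**
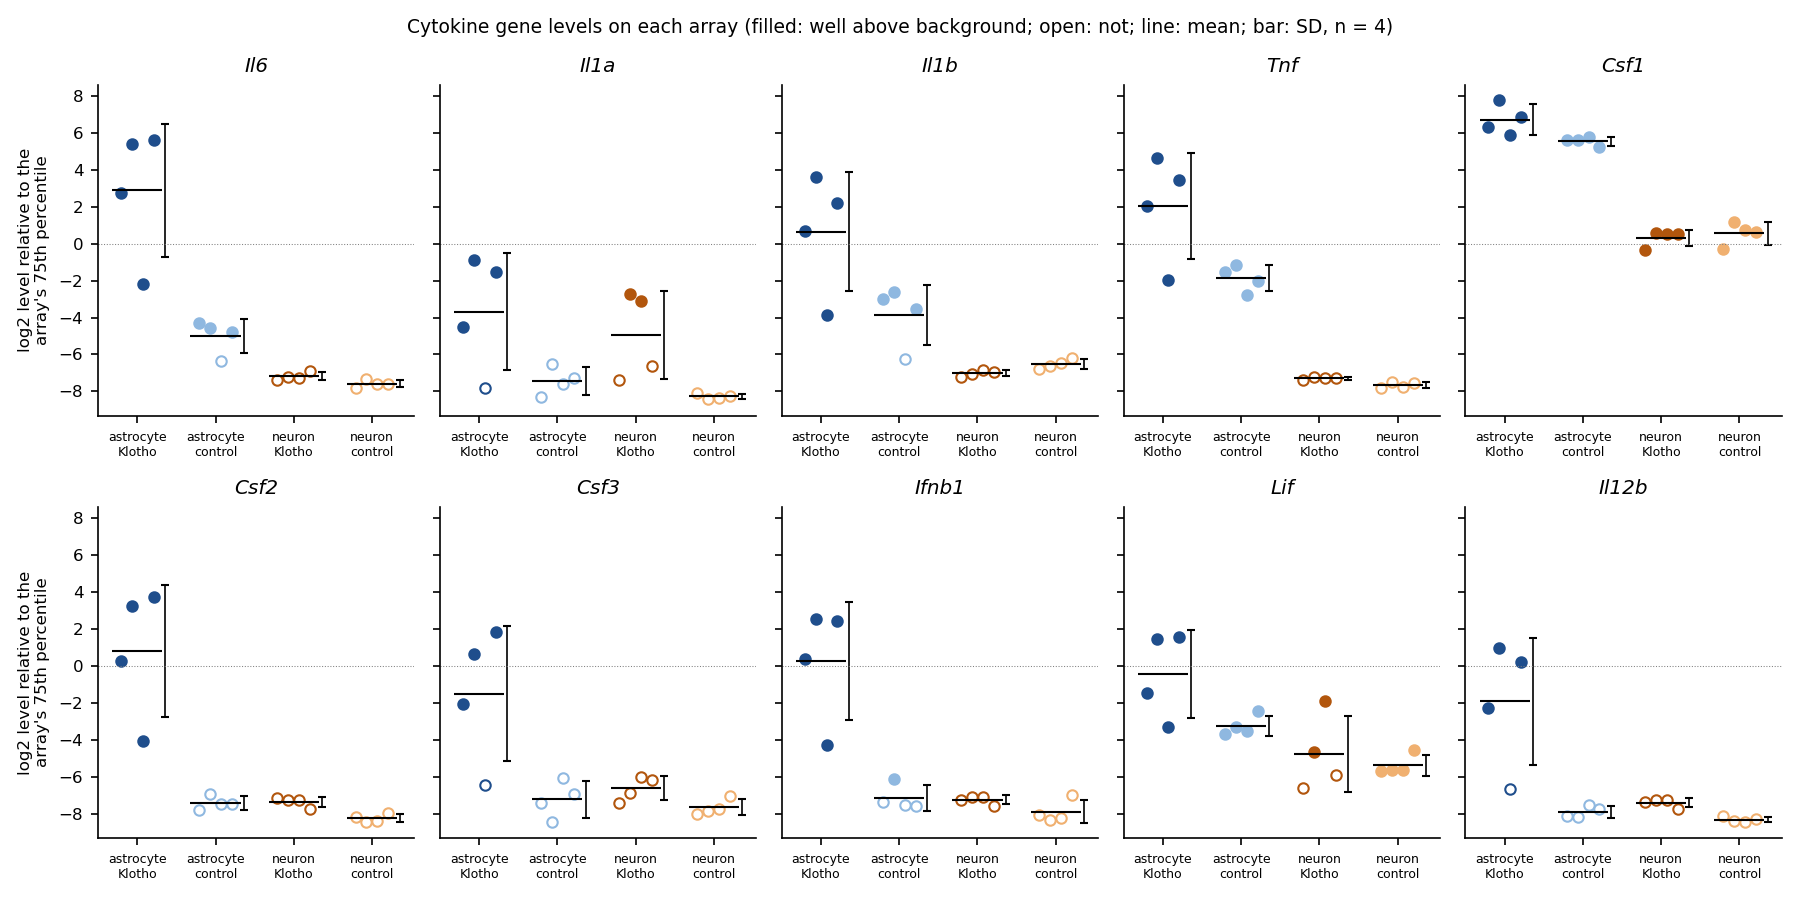
Level of each cytokine gene on every array (y axis: log2 level relative to the array's 75th percentile), by group and replicate, with the mean as a line and the SD as a bar (n = 4). Filled points are above background and open points are not. In the astrocyte Klotho group 1 array, replicate 3, lies lowest for all 10 genes on the probe shown.

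Across the 10 members, every difference in astrocytes was positive. Their median was 5.12, or 4.43 with the 4 members not above background in control at their bounds, beside -0.01 over all 27145 genes and unnamed probes that passed the background filter. The filter, detection on all 4 arrays of a group, was passed by 7 members, all but Il1a, Csf3 and Il12b. The 4 Klotho values lay above the 4 control values in 5 members, Il6, Csf1, Csf2, Ifnb1 and, among signals not above background, Il12b, an arrangement found in 0.998% of all tested. Nothing is read from that count, because the same contrast served to choose the members. Over the whole table limma called 0 genes in this contrast (0% higher, and 966 with an unadjusted p below 0.05). Without Klotho replicate 3 it called 15. The members' differences then grew, for example to 9.56 for Il6 and 6.02 for Il1b. They had to grow, because that array was the lowest Klotho array for each member, so nothing is read from it.

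The spread among the astrocyte arrays is described here by position on the slide. Each position of a slide holds a single array, so position and array cannot be told apart. On slide 3 the array at row 2 column 3 was the lowest for 10 of 10 members, which holds for 23.8% of all tested, and the array at row 1 column 3 was the next lowest for 10 of 10. The highest level was on row 1 column 4 for 6 members (Il1a, Il1b, Tnf, Csf1, Ifnb1 and Il12b) and on row 2 column 4 for 4 (Il6, Csf2, Csf3 and Lif). Both column 4 arrays exceeded both column 3 arrays in 10 of 10 members on slide 3, against 14.4% of all tested. On slide 2 they did so in 2 of 10, Il1a and Lif, against 3.55% of all tested, and Il1a was not above background there. Nothing is read from these counts either, because the members were chosen with a contrast of the same arrays known. For the next lowest array no share over all tested was computed.

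The column difference was therefore large on slide 3 and small on slide 2. Column 4 minus column 3 had a median of 4.73 over the members on slide 3, with a range of 1.21 for Csf1 to 5.50 for Csf3. On slide 2 its median was 0.58, with a range of -0.97 for Csf3 to 1.54 for Il1b. The slide difference was present in both columns but unequal. At row 2 column 3 the slide 3 array exceeded its slide 2 counterpart in 8 members, all but Il1a and Csf3, with a median difference of 0.84. At each of the other positions it did so in 10 of 10, with medians of 4.56 at row 1 column 3, 7.44 at row 1 column 4 and 6.87 at row 2 column 4. Averaged over both columns, row 2 minus row 1 was negative in all 10 members on slide 3, with a median of -2.16, and had a median of -0.10 on slide 2. Within column 4 of slide 3, row 2 was the higher row in Il6, Csf2, Csf3 and Lif. These values include signals not above background, most of them on slide 2. The difference between the highest and lowest array of a slide was wider on slide 3 in 10 of 10, with a median of 7.20 on slide 3 and 1.55 on slide 2. Shares over all tested were not computed for these slide, row and range counts, so whether they are particular to the members is not known.

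**Figure D2:**
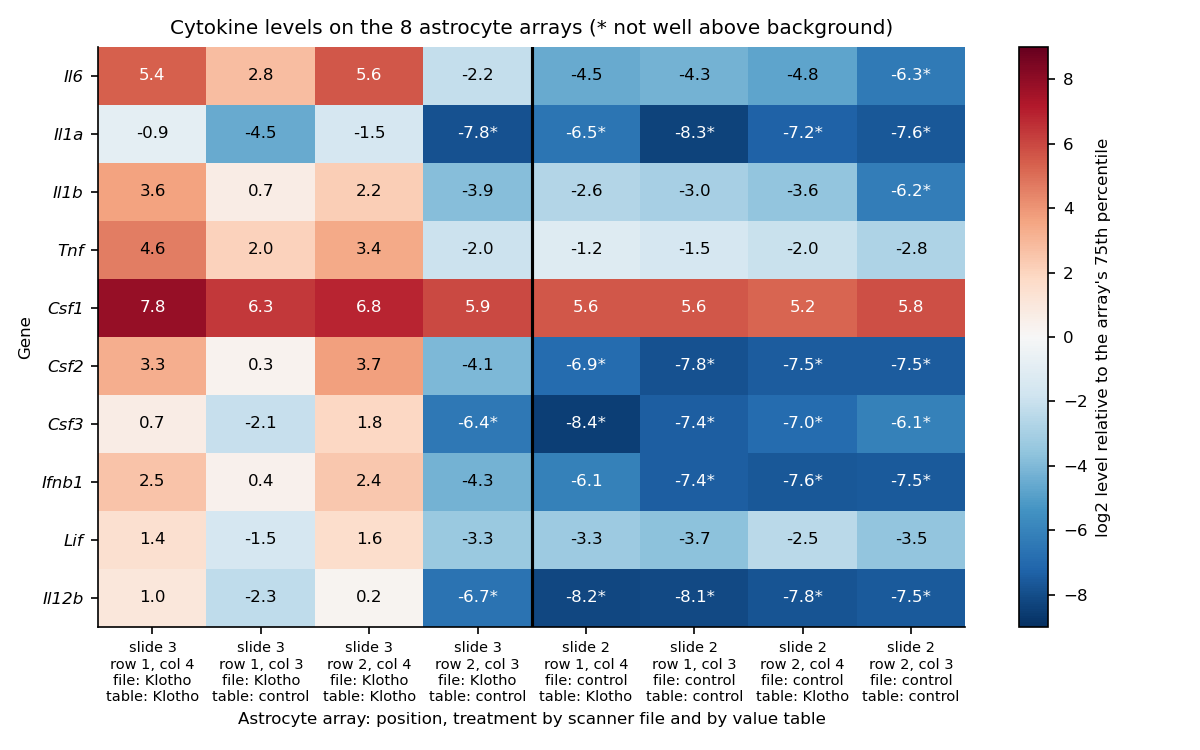
Level of each cytokine gene (rows) on the 8 astrocyte arrays (columns), as log2 level relative to the array's 75th percentile, with the treatment given by the scanner file and by the value table below each column. Stars mark values not above background. Apart from Csf1, levels above 0 lie only on slide 3, left of the line, and the column 4 arrays there are higher than the column 3 arrays for each gene.

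The assignment of arrays decided the size of the difference and whether the groups overlapped, but not its sign for the probe that stands for each gene. The assignments share the 4 undisputed arrays, so the common sign is not a separate result of each. Within slide 2 the value table contrast, column 4 minus column 3, was positive in 7 of 10 members, including signals not above background. With the value table assignment, Klotho minus control was positive in 10 of 10 members with a median of 2.49, and ranged from 0.46 for Csf1 to 3.02 for Il1b. The groups overlapped in every member under that assignment, whereas 0.544% of all tested showed no overlap upward. Il6 then averaged 0.43 ± 5.86 with Klotho against -2.51 ± 3.90 in control (SD, n = 4 each). The Csf1 probes for NM_001113530 averaged 2.87 and 3.06 with Klotho against 2.92 and 3.09 in control, so their sign turned. On the 4 arrays with undisputed treatment, the 2 Klotho arrays exceeded the 2 control arrays by 1.64 for Csf1, 5.11 for Lif and 6.17 for Tnf, which were above background on all 4. The other 7 members were not above background on 1 or both of these control arrays. The median of the measured differences over all 10 was 7.76, which is no bound. Among the 4 disputed arrays, slide 3 column 3 minus slide 2 column 4 was also positive in 10 of 10, with a median of 2.54 and a range of 0.47 for Lif to 5.32 for Csf2. Its sign as a treatment effect depends on which assignment holds, since these are Klotho minus control arrays by scanner file and control minus Klotho arrays by value table.

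**Figure D3:**
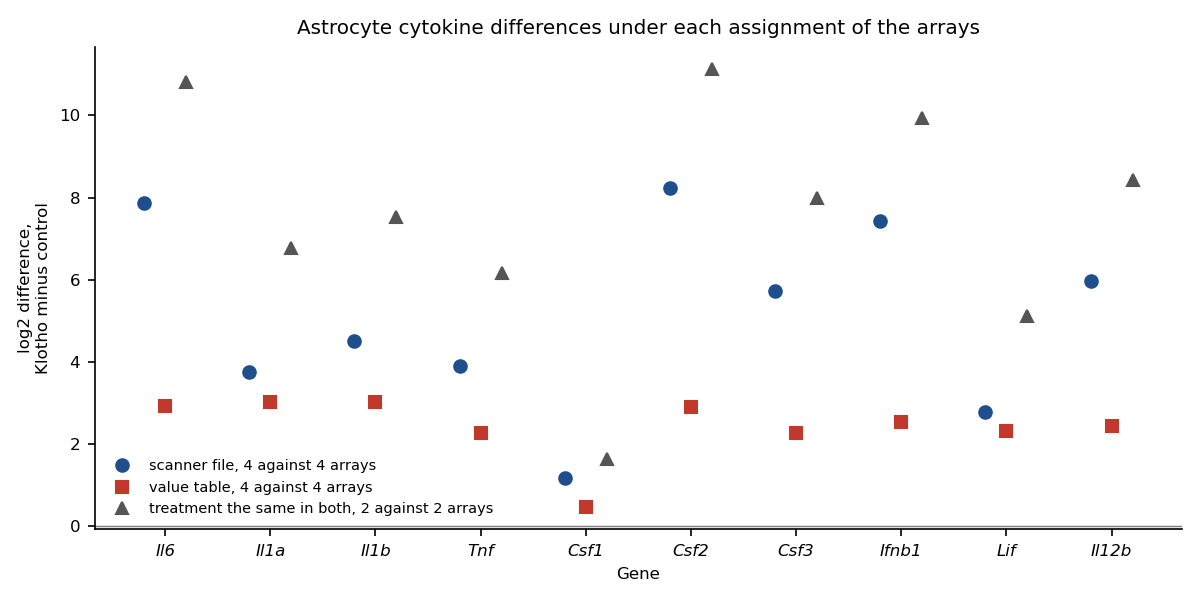
Mean log2 difference of Klotho minus control astrocyte arrays for each cytokine gene, by scanner file (circles), by value table (squares) and on the 2 Klotho and 2 control arrays on which both agree (triangles), including signals not above background. All points lie above 0, and the triangles lie above the circles and squares for each gene.

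Markers of the cultured cell types were read on the same arrays. Summed over 10 astrocyte markers, led by Aldoc, Slc1a3 and Aldh1l1, the signal was 348.8 to 524.1 times the array's 75th percentile on astrocyte Klotho arrays, 311.3 to 526.4 on astrocyte control, 102.0 to 174.8 on neuron Klotho and 132.4 to 205.6 on neuron control arrays. Astrocyte cultures thus carried the markers of their label, and the neuron cultures carried them at lower sums. The 10 neuron markers summed to 32.4 to 58.9 on astrocyte Klotho, 30.2 to 101.8 on astrocyte control, 385.4 to 490.5 on neuron Klotho and 376.2 to 512.2 on neuron control arrays. On the astrocyte arrays 8 of them were above background in both groups, and Nefl and Slc17a7 on no array.

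All 13 microglia and macrophage markers, led by Csf1r, Itgam and Cx3cr1, were above background in both astrocyte groups. Their summed signal was 131.7 to 199.1 on astrocyte Klotho arrays and 162.4 to 270.2 on astrocyte control arrays. On slide 3, where the cytokine levels were highest in column 4, that sum was 131.7 and 199.1 in column 4 and 151.8 and 195.4 in column 3. Of the 13 markers 2 were higher and 11 lower with Klotho than in control astrocytes, with a median log2 difference of -0.35. Neuron cultures held the same markers at lower sums, 41.5 to 44.9 with Klotho and 34.9 to 39.8 in control, where P2ry12 was not above background with Klotho. Fibroblast and meningeal markers were higher on slide 3 than on slide 2, with sums over 5 genes of 27.5, 21.1, 11.0 and 13.9 on astrocyte Klotho replicates 1 to 4 and 8.50 to 10.2 on astrocyte control arrays, without overlap. On slide 3 their sum was not ordered by column, with 21.1 and 13.9 in column 4 and 27.5 and 11.0 in column 3. Lum was above background on 3 Klotho arrays and on no control array. Sums over 9 oligodendrocyte lineage markers (45.6 to 84.2 with Klotho, 30.6 to 125.8 in control) and 7 endothelial and mural markers (4.94 to 15.1 with Klotho, 9.25 to 17.2 in control) overlapped. The part of any of these cells in the cytokine levels was not tested.

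**Figure D4:**
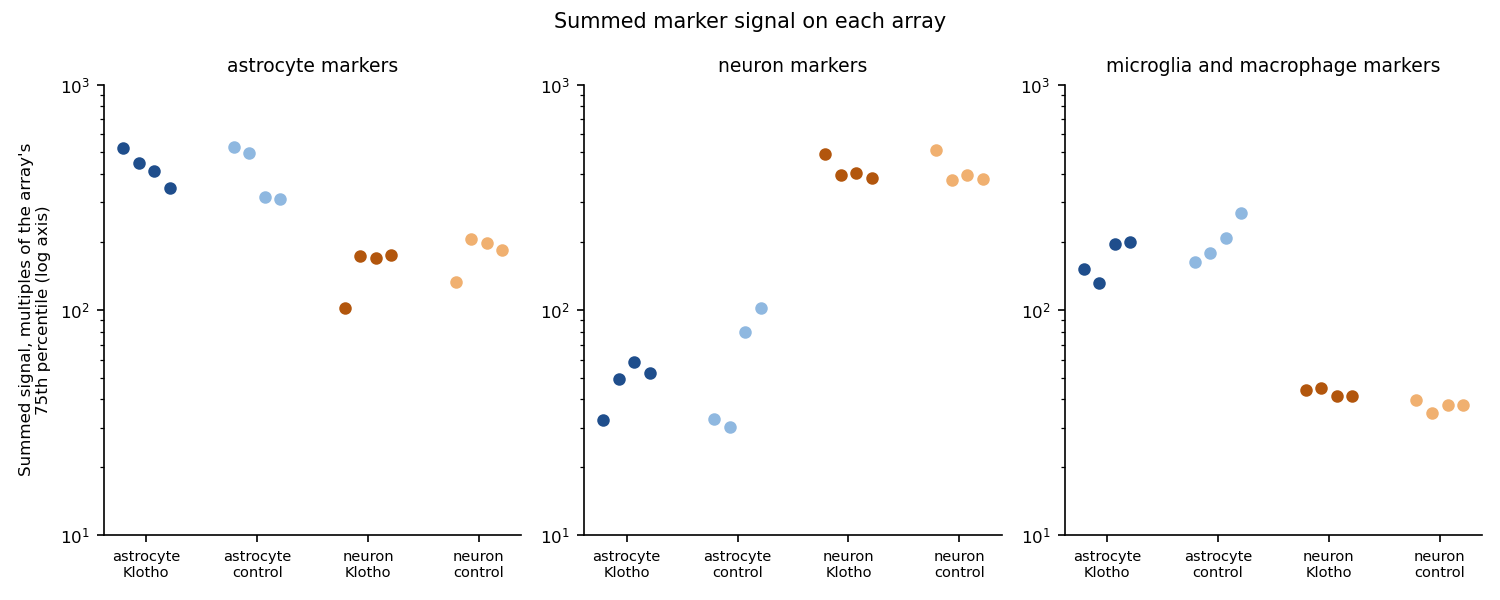
Summed signal of astrocyte, neuron and microglia or macrophage markers on each array, as multiples of the array's 75th percentile on a log axis, by group. Microglia and macrophage sums are higher in both astrocyte groups than in both neuron groups, and the astrocyte Klotho and control ranges overlap.

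In neurons Csf1 and Lif could be tested and neither passed, and most of the family was not measurable. Csf1 had -0.36, 0.56, 0.53 and 0.50 on the Klotho arrays against -0.28, 1.17, 0.72 and 0.62 on the control arrays, with overlap. The difference was -0.25 ± 0.32 (SE, limma adjusted p = 0.998). Lif had -6.61, -4.68, -1.92 and -5.89 on the Klotho arrays, where replicates 1 and 4 were not above background, and -5.69, -5.66, -5.64 and -4.54 on the control arrays. The difference of 0.61 ± 0.90 (limma adjusted p = 0.998) rests on Klotho replicate 3, without which it was -0.34.

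Neither was among the 36 of 28847 that limma called in neurons, all of them lower with Klotho (0.125% lower, 0% higher). With the replicate number as a block, which pairs same-numbered arrays, 22 were called lower, and neither Csf1 nor Lif passed. Il1a was above background on Klotho replicates 2 and 3, at -2.70 and -3.10, and on no other neuron array. The other Klotho arrays read -7.38 and -6.60 and the control arrays -8.43 to -8.07. Its single spot gave a bound of at least 2.55-fold higher with Klotho, which did not pass the filter and was not tested. Il6, Il1b, Tnf, Csf2, Csf3, Ifnb1 and Il12b were not above background on any of the 8 neuron arrays, and no direction is read from their signals, since the lowest measurable level differed between the groups.

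The genes around the cytokines were likewise not called in neurons. Of the cytokine receptors and antagonists 0 of 16 tested passed, with a median difference of -0.16 beside -0.03 over all tested. The smallest p was that of Ifnar1, a subunit of the interferon beta receptor, at -0.32 ± 0.10 (limma adjusted p = 0.998). None passed among 15 other cytokines (median 0.00), 19 genes of sensing and induction (-0.08), 9 of feedback and mRNA decay (-0.05) and 5 of cytokine processing (0.06). Il18, a cytokine matured by caspase 1, differed by -0.31 ± 0.14 and Casp1 itself by -0.26 ± 0.12 (limma adjusted p = 0.998 each).

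Vehicle cultures were also compared, astrocyte control against neuron control, which is not the contrast known when the members were chosen. The astrocyte control arrays belong to both contrasts, however, so this test is not independent of that choice. The astrocyte control and neuron control groups lie on slides 2 and 1, so cell type and slide cannot be told apart. The neuron control arrays are the ones used above. Csf1 and Lif were above background on all 8 arrays. Both were higher in astrocytes, where 21.5% of the 30544 tested were higher and 29.9% lower. Csf1 was higher by 5.00 ± 0.31 (limma adjusted p = 2.18e-06) and Lif by 2.15 ± 0.36 (limma adjusted p = 0.00102). Tnf passed the filter through the astrocyte group alone, so it is given as a bound without a p-value. It was at least 21.6-fold higher (log2 difference 5.78 as measured), since no neuron control array, at -7.80 to -7.51, was above background. With normexp background correction the differences of Tnf and Lif were 2.25 and 0.76, and that of Tnf was then smaller than its bound. In Csf1 and Lif the 4 astrocyte values lay above the 4 neuron values, as they did in 21.8% of all tested.

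The other members did not pass the filter. Il6 was above background on 3 astrocyte control arrays and no neuron control array, at least 2.50-fold higher, and Il1b likewise on 3 arrays, at least 5.39-fold higher. Ifnb1 was above background on 1 astrocyte control array, and Il1a, Csf2, Csf3 and Il12b on none of the 8. With the value table assignment, which replaces 2 of the astrocyte control arrays, the bounds were 13.8-fold for Il6, 9.05-fold for Il1b and 38.0-fold for Tnf. Csf2 was then above background on 2 control arrays, at least 2.89-fold higher. For Csf1 the order of levels was astrocyte Klotho, astrocyte control, and then both neuron groups, which did not differ beyond their spread. Lif had the same order of means, but its astrocyte groups overlapped.

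Genes that receive, trigger or restrain these cytokines were mostly higher in astrocyte control than in neuron control cultures. Over all tested, 21.5% were higher and 29.9% lower. The counts below include genes that passed the filter through the astrocyte group alone, such as those given as bounds. With detection required on all 8 arrays, 11 receptors and antagonists, 8 other cytokines, 17 sensing genes and 7 feedback genes were called higher. Over all tested under that filter, 5129 of 24963 were higher and 6755 lower. How many genes of each list were tested under it is not given, so no share is read from these counts. Of 17 tested cytokine receptors and antagonists 12 were higher and 2 lower, with a median log2 difference of 2.75 beside -0.21 over all tested. Csf1r, the receptor for Csf1 and also a microglia marker, was higher by 6.11 ± 0.21 (limma adjusted p = 1.23e-07), and the TNF receptor gene Tnfrsf1b by at least 35.5-fold. Csf2rb (4.74 ± 0.29), the beta subunit for Csf2, Il1r1 (4.42 ± 0.30), Il6ra (3.99 ± 0.25) and Il6st (2.75 ± 0.21), which encodes gp130, were also higher.

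Of 22 tested genes of sensing and induction 20 were higher and 0 lower (median 2.41). Tlr4, the receptor for bacterial lipopolysaccharide, was at least 49.3-fold higher and its co-receptor gene Cd14 higher by 6.94 ± 0.38 (limma adjusted p = 1.07e-06). The RNA sensors Ifih1 and Ddx58 were higher by 6.67 ± 0.36 and 5.83 ± 0.37, Irf7 by at least 74.2-fold, and Nfkb1, which encodes the p50 subunit of NF-kappaB, by 2.99 ± 0.18. Of 12 genes of feedback and mRNA decay 10 were higher and 0 lower (median 2.01). Zfp36, whose protein binds and destabilises Tnf mRNA, was at least 9.11-fold higher, Irak3 at least 8.81-fold, and the mRNA nuclease gene Zc3h12a higher by 4.01 ± 0.21, while Socs3, Zfp36l1 and Socs1 were higher by 3.27, 2.44 and 1.11.

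Cytokine processing genes were higher in 4 of 5, with Casp1, which matures IL-1 beta, at 3.81 ± 0.42, Capn1 at 2.58 ± 0.27, Pycard at 2.16 ± 0.31 and Adam17, the sheddase of TNF, at 1.04 ± 0.29. Nlrp3, named because it was the one gene of this list that did not pass, differed by -0.24 ± 0.41 (limma adjusted p = 0.65). Among other cytokines 10 of 18 tested were higher and 3 lower (median 1.41), including Tgfb1 at 4.20 ± 0.20, Clcf1 at 5.42 ± 0.32, Ctf1 at 3.58 ± 0.39, Tnfsf13b at 3.63 ± 0.40, Il15 at least 10.1-fold higher and Il24 lower at -2.18 ± 0.20. Over the same contrast 12 of 13 microglia and macrophage markers were higher (median 5.57), 8 of 10 astrocyte markers were higher (1.97) and 9 of 10 neuron markers were lower (-6.98). How much of the list differences came with the microglia was not tested.

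**Figure D5:**
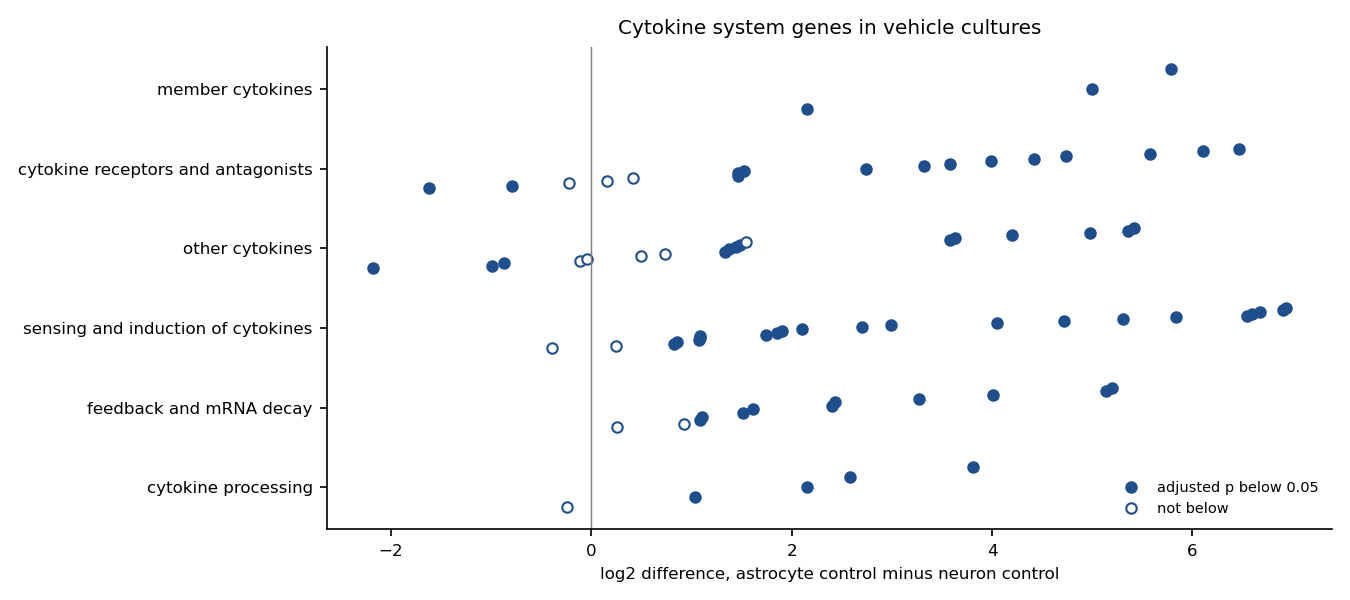
Log2 difference of astrocyte control minus neuron control for every gene of each cytokine list that passed the background filter, 1 point per gene, filled where the limma adjusted p was below 0.05. The 3 cytokines and most genes of the other lists lie right of 0. Tnf and some genes of the other lists passed the filter through the astrocyte group alone.

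The same lists are described for Klotho against control astrocytes without a test, since the members of the family came from that contrast. Sensing and induction genes were positive in 17 of 22 with a median of 0.57 beside -0.01 over all tested, and feedback and decay genes in 10 of 12 with a median of 0.87. The largest differences were in Tnfaip3 (3.62 ± 1.11), which encodes the NF-kappaB inhibitor A20, Tlr2 (2.74 ± 0.91), and the NF-kappaB inhibitor genes Nfkbia (2.00 ± 0.79) and Nfkbie (1.98 ± 0.90). Zfp36 followed at 1.91 ± 0.72, Irf7 at 1.34 ± 0.57, Nfkb1 at 1.21 ± 0.42 and Ifih1 at 1.18 ± 0.47. Of these, Nfkb1 alone had all Klotho values above all control values.

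Receptors and antagonists were positive in 11 of 16 with a median of 0.27, and Tnfrsf1b at 1.03 ± 0.52 had the largest difference. Other cytokines were split, with 9 of 18 positive and a median of 0.00. Tnfsf10, which encodes the death ligand TRAIL, differed by 3.86 ± 1.00 and Il19 by 3.17 ± 1.18, both with overlapping groups. Processing genes were positive in 3 of 5 with a median of 0.69.

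The genes whose levels followed the members most closely over the 8 astrocyte arrays were Nos2, Calhm6, Tnfsf10, Pla1a and Diras2. Likeness was the Pearson correlation with the mean level of the 7 members detected on at least 4 of these arrays, over 15944 genes, and was 0.994 for Nos2, 0.992 for Calhm6, 0.99 for Tnfsf10 and 0.989 for the other two. The arrays share slides and treatment, so these values only describe the likeness. The mean of the 7 members was 1.57, 4.10, -1.96 and 3.68 on slide 3 at row 1 column 3, row 1 column 4, row 2 column 3 and row 2 column 4, and -4.01 to -2.72 on slide 2. Nos2, the inducible nitric oxide synthase, had 2.10, 4.55, -1.27 and 4.67 at these places of slide 3 and -2.30 to -2.07 on slide 2. Diras2 varied over a narrower range, with -1.41 to 0.66 on slide 3 and -2.10 to -1.37 on slide 2.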

How the data were processed

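Per the file headers, Agilent Feature Extraction 12.0.3.1 (protocol GE1_1200_Jun14) read arrays of design 028005, whose probes refer to mouse build NCBI37. The deposited processed intensity is linear, background-subtracted and detrended within an array, and not normalized between arrays. The deposited value table holds a score made by the authors with no stated unit, which equals the z-score per column of log2 processed intensity. Each column matches 1 array within 0.005, and 6 of the 16 match another astrocyte sample's array. No column of per-sample values stayed unused (0 others).

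Of 62976 spots per array 59305 represent 55681 probes. Population outliers were dropped, spots averaged on the log2 scale, and the array's 75th percentile subtracted. A probe was above background when at least 0.5 of its spots were. Probes were named through RefSeq accessions (50.9% received a symbol), and the brightest probe stood for a gene. Genes and unnamed probes that every array of either compared group detected above background were tested with limma 3.58.1 in R 4.3.3 (lmFit, eBayes), adjusted by Benjamini and Hochberg over all tested, with a threshold of 0.05. Bounds ("at least N-fold") replace the dimmer group's values by each array's lowest signal above background where that is higher. Some probes with a higher signal were not called above background. The bounds are therefore nominal and hold on this scale only. Python 3.11.15 with pandas 2.3.3 and matplotlib 3.10.9 made the tables and plots. The fit was tested on simulated data.

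Same-numbered Klotho and control arrays deviated together to an unequal degree. The correlation of deviations from the group mean was 0.755, 0.16, 0.433 and 0.379 in neurons and 0.73, 0.155, 0.528 and 0.647 in astrocytes. Neuron Klotho replicates 2 and 4 correlated more with control replicate 3 (0.38 and 0.412). Same-numbered arrays also share a column and, in astrocytes, a row, so whether the numbers of the titles pair cultures cannot be told. The main fits have no block. With the replicate block, 22 genes were called lower in neurons, against 36 without it.

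The members and lists were chosen with earlier results of these data known. Named were all members, up to 6 called genes of a list by smallest p, otherwise up to 4 genes with the smallest p or, in the astrocyte treatment contrast, the largest difference among those tested, and the 5 genes most like the members. Alternatives were background correction, scaling, the background filter, probe choice, the assignment of arrays, blocks, and leaving out each array. Normexp used the median signals, as the files hold no mean signal.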

Additional observations from a re-analysis of the deposited data

Results flagged for a closer look

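Of 21 group and gene combinations of 4 arrays that were checked for a single array apart from the others (Dixon's gap over range, 95% critical value), 3 met the limit, and chance flags about 1 in 20. Csf1 was lowest in neuron Klotho replicate 1, at -0.36, where the other 3 Klotho arrays had 0.50 to 0.56. Ifnb1 was highest in astrocyte control replicate 2, at -6.11, the single control array on which it was above background. Lif was highest in neuron control replicate 4, at -4.54, where the other 3 control arrays had -5.69 to -5.64.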

How the results depend on the processing

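In the comparison of vehicle cultures, Csf1 and Lif kept their direction and stayed below the threshold in every alternative run. Their adjusted p (limma) was 8.3e-07 to 7.82e-05 for Csf1 and 0.000454 to 0.0106 for Lif. Tnf, which passed the filter through the astrocyte group alone, also kept its direction. It was not tested where detection on all 8 arrays was required. Same-numbered arrays of the vehicle groups did not deviate together (correlations 0.102, 0.038, -0.144 and 0.283), and the replicate block changed neither the Csf1 nor the Lif call. In neurons the adjusted p was 0.413 to 1.0 for Csf1 and 0.689 to 1.0 for Lif, whose difference turned to -0.34 without Klotho replicate 3 and reached 1.22 without Klotho replicate 1. The 36 genes lower in neurons became 22 with the replicate block, 6 with normexp, 3 when detection on all 8 arrays was required and 57 in the deposited value table. Without a filter 235 were lower and 6917 higher, where the lowest measurable level differs between the groups. Leaving out 1 array gave 16 to 53 lower and 0 to 3 higher, with 16 without Klotho replicate 1, 18 without control replicate 4, 20 without control replicate 3, 23 without Klotho replicate 3 and 3 higher without Klotho replicate 2 or 4. In astrocytes the count called higher was 2 on the undisputed arrays and 0 to 15 with 1 array left out, 15 without Klotho replicate 3 and 1 without control replicate 3. In the vehicle cultures the counts called higher among receptors, other cytokines, sensing genes, feedback genes, astrocyte markers and microglia markers stayed within 1.5 times. The members' own astrocyte differences under each assignment stand with the results, and the Csf1 difference was -0.28 in the column comparison within slide 2. Except where the alternative itself changes the genes or arrays used, the cause was not tested. Signal over background limits Il1a, Csf2, Csf3 and Il12b in astrocyte control cultures, where only bounds can be given, and Ifnb1, which was above background on 1 control array, and 4 of the members rest on 1 spot per array.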
